A study of Mus musculus with 3 samples.

Results

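The hedgehog receptors and co-receptors examined here are 8 genes: Ptch1, Smo, Boc, Cdon, Gas1, Hhip, Evc and Evc2. They were chosen by name from the pathway, out of 21887 protein-coding genes in the RefSeq annotation of mouse GRCm38. The series used ATAC-seq, which reads accessible DNA from where the Tn5 transposase can insert adapters, on cells from the apical part of first molars. There were 3 libraries from C57BL/6 mice at postnatal day 7.5, with tamoxifen given by injection at postnatal day 3.5. The mutant group, Gli1-CreER;Arid1a fl/fl, had 1 library and the control group, Arid1a fl/fl, had 2. Every animal thus carried the floxed Arid1a allele, whose product belongs to the SWI/SNF complexes that remodel chromatin, and only the mutant carried the tamoxifen-inducible Cre. That Cre is expressed from Gli1, itself a hedgehog target gene, so deletion is induced in cells that express Gli1 around the time of tamoxifen and is inherited by their descendants. Where and how far Arid1a was deleted was not measured in the tables used here, and the number of animals behind a library was not stated.

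The values analysed are pooled over the libraries. They are 13500 open chromatin windows, each 201 bp long, and the sites of the binding motif of Plagl1 (Zac1), a zinc finger transcription factor, that were found by sequence in those windows. No window has a value per library, so the mutant and control libraries could not be compared, the depth of a window is unknown, and the values below carry neither replicate error nor test. A motif site is a match of letters and not a measurement of Plagl1 binding. Among markers of cell types that the molar could hold, 8 of 9 dental mesenchyme markers and 3 of 6 odontoblast markers had a window inside the gene or within 10 kb, as did 2 of 7 dental epithelium markers, 4 of 4 immune markers and 1 of 4 endothelial markers, where the share over all protein-coding genes was 59.5%. With odontoblast markers below that share and immune markers above it, these counts do not check the tissue label. A cell type's part in a window was not tested.

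In the absence of ligand, the receptor Ptch1 holds the membrane protein Smo inactive, and binding of a hedgehog ligand to Ptch1 releases Smo, which gathers in the primary cilium and leads to activation of the Gli transcription factors. Boc, Cdon and Gas1 bind the ligand at the cell surface and help present it to Ptch1, whereas Hhip binds it and takes it out of action. Evc and Evc2 form a complex at the base of the cilium that relays the signal from Smo. Cells with Gli1 expression near the root apex of the molar are progenitors of the root mesenchyme.

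The motif sites at these genes are shown first, because the results turn on how they differ in sequence and score. There were 8 sites in all. Each line gives a site in the 5′ to 3′ direction of the motif strand, and the capitals mark positions 4 to 7, counted from 1 at the 5′ end, which hold the core of the motif.
Ptch1, chr13:63568066-63568075, minus strand: cgaGGGGgcc
Smo, chr6:29735847-29735856, plus strand: cgaGGGGccc
Smo, chr6:29735883-29735892, minus strand: tctGGGGcca
Boc, chr16:44558227-44558236, plus strand: ctaGGGGccc
Boc, chr16:44558263-44558272, minus strand: cctGGGGctc
Cdon, chr9:35421688-35421697, plus strand: ggaGGGGccc
Evc2, chr5:37338516-37338525, plus strand: tgcGGGGcct
Evc2, chr5:37338559-37338568, minus strand: cgtGGGGccc
All positions are in mm10, counted from 1.

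Most of the receptor genes lay at open chromatin. A window with its midpoint inside the gene or within 10 kb of it was found for 7 of the 8 genes, the exception being Hhip, and a motif site for 6 of the 8. Across all protein-coding genes, 59.5% had such a window and 25.1% had a site in it. Gene length bears on the first share, which was 42.4% for genes up to 10 kb, 67.5% from 10 to 50 kb, 73.8% from 50 to 100 kb and 71.1% for longer genes. Of the 8 genes, 5 were between 50 and 100 kb long, namely Ptch1, Boc, Cdon, Hhip and Evc2. Gas1 was the only one under 10 kb, with 3.1 kb. In total the 8 genes had 10 windows, 0.0741% of the list, of which 9 lay inside one of the genes.

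**Figure D1:**
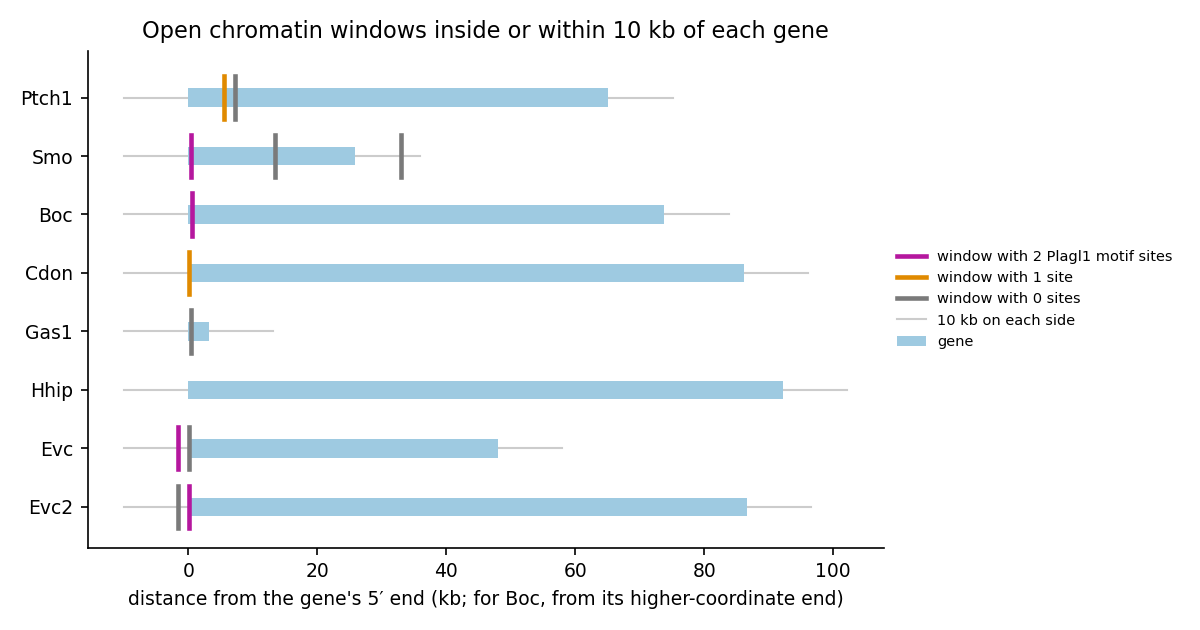
Position of open chromatin windows along each gene, in kb from the 5′ end of the gene (for Boc, whose strand was not taken from the annotation, from the end with the higher coordinate). Blue bars are genes, thin lines the 10 kb on each side, and vertical marks are windows coloured by their number of Plagl1 motif sites. A mark stands at or near the left end of every gene but Ptch1, whose windows are 5464 and 7170 bp in, and Hhip, which has none.

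Most of the genes with a known strand had a window near the outer 5′ end of the annotated gene. Both windows of Ptch1 and the farther ones of Smo lay elsewhere. Among the 7 genes whose strand is known from RefSeq, 5 had a window within 1 kb of that end, against 46.4% of the 17492 protein-coding genes with a known strand. The genes counted depend on the start used. From the start that RefSeq lists in its promoter table, the nearer Ptch1 window was 555 bp away and the Cdon window 30471 bp away. By that start Ptch1 would count and Cdon would not. None of the 7 had a window within 1 kb of the 3′ end, where the share over all genes was 2.78%.

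Ptch1, the ligand receptor and itself a target of hedgehog signalling, had 2 windows, neither of them at the outer 5′ end of the gene. They lay at chr13:63566190-63566390 and chr13:63567896-63568096, 7170 and 5464 bp inside the 5′ end of the gene (chr13:63508328-63573460, minus strand). Relative to the start that RefSeq lists in its promoter table, at 63565735, both were upstream, by 555 and 2261 bp. The 2 windows were unlike each other in composition. The one nearer to that start had a GC content of 52.2% and 3 CpG dinucleotides per 100 steps between neighbouring bases, and held no site. The farther one had a GC content of 71.1% and 13.5 CpG per 100 steps, and held 1 site with a score of 5.79. The score is the log-odds score of the HOMER motif program, in which a higher value is a closer match, and 36.7% of all sites scored lower.

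Smo, which carries the signal across the membrane, had 3 windows, the most of the 8 genes. Ptch1, Evc and Evc2 had 2 each, the Evc pair by sharing the same windows. Over all protein-coding genes, 21.2% had 2 or more, and the share with 3 or more was not counted. The window at its 5′ end, chr6:29735817-29736017, had its midpoint 420 bp inside the gene (chr6:29735497-29761366, plus strand), with a GC content of 69.7% and 10.5 CpG per 100 steps. It was the only one of the 3 with motif sites, and its 2 sites scored 6.82 and 6.32. Of all sites, 93.8% scored below the higher of them. The window in the middle of the gene, chr6:29748793-29748993, was 13396 bp from the 5′ end and 12473 bp from the 3′ end. It held no CpG at all, at a GC content of 54.2%, and lay 1279 bp from the pseudogene Gm13717. The remaining window, chr6:29768406-29768606, was 7140 bp beyond the 3′ end of Smo and 127 bp inside the neighbouring gene Ahcyl2, so it counts for Smo by distance alone. Its GC content was 68.2%, with 6 CpG per 100 steps.

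The co-receptors had 1 window each, with GC contents from 65.7% to 82.6%. Boc, an immunoglobulin family protein that binds the ligand, had its window at chr16:44558204-44558404, 566 bp inside the higher-coordinate end of the gene (chr16:44485045-44558870). The microRNA gene Mir3081 lay 175 bp from its midpoint. The Boc window had a GC content of 65.7%, 6.5 CpG per 100 steps and 2 sites, with scores of 6.15 and 5.63. Cdon, the paralogue of Boc, had its window at chr9:35421505-35421705, with the midpoint 77 bp inside the 5′ end of the gene (chr9:35421528-35507652, plus strand). That is far from the start listed in the RefSeq promoter table, which lies 30471 bp downstream. Its GC content of 82.6% and 17 CpG per 100 steps were the highest of the 10 windows, and 98.3% of all windows had a lower GC content. It held 1 site, with a score of 5.72, below the median of all sites.

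Gas1, a co-receptor anchored to the membrane by a lipid and first known as a gene of growth arrest, had its window at chr13:60177030-60177230, 405 bp inside the 5′ end of the gene (chr13:60174405-60177535, minus strand). This window ranked next after Cdon in both GC content, 73.6%, and CpG content, 14.5 per 100 steps, and held no site. Boc, Cdon and Gas1 thus shared a window at a gene end and differed in motif sites, with 2, 1 and 0.

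Hhip, the ligand-binding inhibitor, had no window inside the gene (chr8:79965850-80058060, minus strand) or near it. The nearest windows on its chromosome were 254.2 kb away on the low-coordinate side and 681.2 kb away on the other. That is the longest gap on the high-coordinate side among the 8 genes. For the other 7 genes the next window beyond 10 kb lay from 41.3 kb (Smo, low-coordinate side) to 487.3 kb (Evc, high-coordinate side) away. Since the selection of the regions is not stated, the lack of a window does not show that Hhip was closed.

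**Figure D2:**
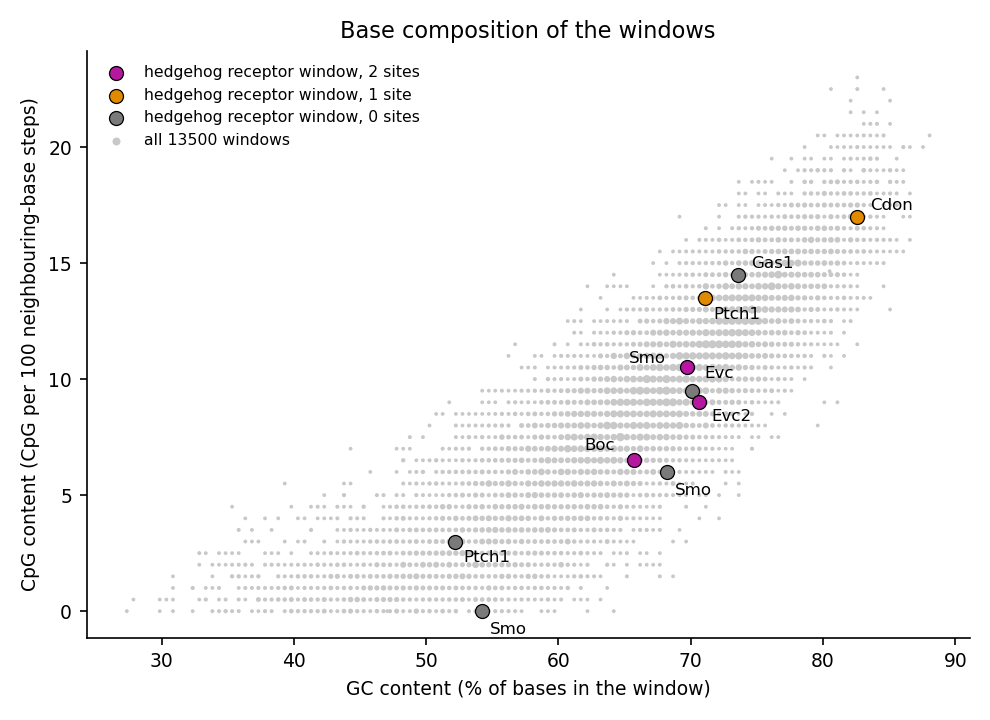
GC content (percent of bases) against CpG content (CpG per 100 steps between neighbouring bases) of the 10 windows at receptor genes, as large points coloured by the number of motif sites and labelled by gene, and of all 13500 windows, as grey points whose area grows with the number of windows. The 5 windows with a site have GC contents between 65.7% and 82.6%, and the lowest points are 1 window each of Ptch1 and Smo.

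Evc and Evc2, which together relay the signal downstream of Smo, lie head to head on chromosome 5. Evc (chr5:37288970-37336947) runs on the minus strand and Evc2 (chr5:37338478-37425055) on the plus strand, with 1530 bp between them. Each had a window of its own at its 5′ end. That of Evc, chr5:37336733-37336933, had its midpoint 114 bp inside the gene, and that of Evc2, chr5:37338434-37338634, had it 56 bp inside. By the 10 kb rule each gene also counts its neighbour's window. The windows were much alike in base composition, with GC contents of 70.1% for Evc and 70.6% for Evc2, and 9.5 and 9 CpG per 100 steps. They were unlike in motif sites. The Evc window held none and the Evc2 window held 2, with scores of 5.66 and 7.07, so that Evc has a site through the window of its neighbour alone. The score of 7.07 was the highest at any of the 8 genes, and 97.3% of all sites scored lower. Of 56 divergent protein-coding pairs with 1 to 2 kb between the genes, 25.0% had a window at both 5′ ends and 21.4% had 2 or more different windows there.

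The 250 bases upstream of the RefSeq start are shown for this pair and for Hhip, to set the promoters that reach into a window beside the one of the gene with none. They are RefSeq sequences of GRCm38.p6, written 5′ to 3′ on the strand of the gene, and the capitals mark the bases that belong to an open chromatin window.
Evc, chr5:37336882-37337131, minus strand: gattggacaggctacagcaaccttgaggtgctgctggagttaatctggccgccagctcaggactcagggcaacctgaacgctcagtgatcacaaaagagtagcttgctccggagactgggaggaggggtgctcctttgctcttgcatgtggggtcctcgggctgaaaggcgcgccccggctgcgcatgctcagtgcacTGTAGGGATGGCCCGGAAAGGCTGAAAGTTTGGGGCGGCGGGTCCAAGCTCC
Evc2, chr5:37338228-37338477, plus strand: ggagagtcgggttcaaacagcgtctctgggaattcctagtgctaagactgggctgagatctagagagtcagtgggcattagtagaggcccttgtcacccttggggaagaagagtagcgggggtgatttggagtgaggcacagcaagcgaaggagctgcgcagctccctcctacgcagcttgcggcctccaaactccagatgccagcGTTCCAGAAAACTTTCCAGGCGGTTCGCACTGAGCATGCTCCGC
Hhip, chr8:80058009-80058258, minus strand: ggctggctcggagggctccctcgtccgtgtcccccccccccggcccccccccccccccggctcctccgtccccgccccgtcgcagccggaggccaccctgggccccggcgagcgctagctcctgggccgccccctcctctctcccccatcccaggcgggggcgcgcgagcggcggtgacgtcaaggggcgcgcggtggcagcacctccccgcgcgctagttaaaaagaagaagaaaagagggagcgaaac
The window of Evc takes in the last 52 of these bases and that of Evc2 the last 44, and both go on past the listed start. For Evc the listed start, 37336881, lies inside the annotated gene, so the 52 bases do too. The midpoint of the Evc window is 48 bp downstream of that start. The upstream GC content was 60.8% for Evc, 57.2% for Evc2 and 76.0% for Hhip. The upstream bases of Ptch1, Smo, Gas1 and Cdon, which also lay outside any window, had 78.4%, 68.4%, 58.8% and 42.8%. Ptch1, Smo and Hhip thus lay above the Evc pair, Gas1 between Evc2 and Evc, and Cdon alone below. The Cdon value belongs to the listed start 30471 bp downstream of its window, not to the 5′ end of the gene.

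The lower-scoring of the Evc2 sites lies just after the start and falls in the RefSeq promoter sequence. In the following 30 bases, chr5:37338498-37338527 on the plus strand, the capitals mark that site.
Evc2: ccggaagctccgcgactcTGCGGGGCCTgt
The motif was then searched in the RefSeq promoter sequences themselves, which run from 250 bases before to 50 after a start, on both strands and down to the lowest score of the deposited sites, 5.51. A match was found in 39.3% of 32851 promoter sequences. These outnumber the 21887 protein-coding genes, so the set is not 1 sequence per protein-coding gene. Promoter sequences were at hand for 7 of the 8 genes, not for Boc. Smo, Gas1, Hhip and Evc2 had 2 matches each, Evc had 1, and Ptch1 and Cdon had 0. Of these 9 matches, the only one inside a window was the Evc2 site with a score of 5.66. Both Hhip matches, with scores of 5.51 and 5.81, lay outside any window, as did both of Gas1, with 5.90 and 5.54. The 0 deposited sites at Gas1 and Hhip therefore describe the windows that were searched, not the letters of the promoters. The binding consensus of the Gli factors, GACCACCCA on either strand, was in 0 of the 7 promoter sequences and in 0.253% of all, and says nothing about Gli binding elsewhere at these genes.

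Motif sites were found in 5 of the 10 windows, and 2 sites in 3 of the 10, the windows of Smo, Boc and Evc2. Over all windows, 32.9% held a site and 7.81% held 2 or more. Since the motif is rich in G, the windows with a GC content from 65% up to 75% are a nearer comparison, and there the shares were 34.9% and 7.79%. The receptor counts were not limited to this band. Windows of Ptch1 (52.2%), Smo (54.2%) and Cdon (82.6%, with a site) lay outside it. Median GC content was 69.9% in the receptor windows and 66.7% in all windows, and median CpG content was 9.25 and 9 per 100 steps. With 10 windows, of which some belong to 1 gene, these counts describe the genes and cannot tell them from others.

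**Figure D3:**
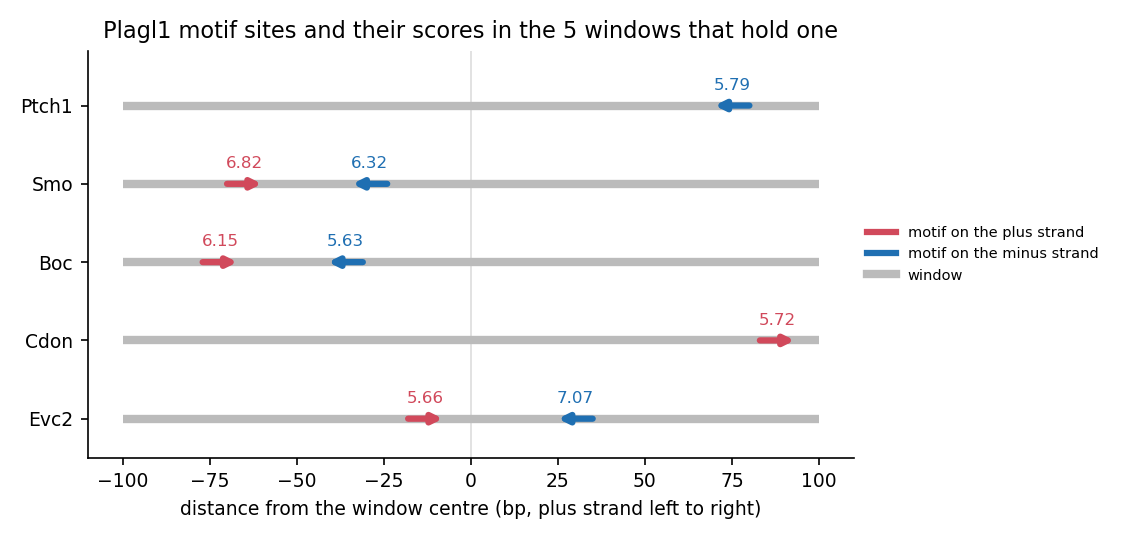
Plagl1 motif sites in the 5 receptor gene windows that hold one, by distance from the window centre in bp. Arrows are sites, pointing along the motif strand, with their scores above them. In the windows of Smo, Boc and Evc2 a plus-strand site on the left faces a minus-strand site on the right.

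The 3 windows with 2 sites shared an arrangement. In each, the site with the lower coordinate was on the plus strand and the other on the minus strand, so that the motifs point towards each other. The starts of the sites were 36 bp apart at Smo, 36 bp apart at Boc and 43 bp apart at Evc2. Over all windows there were 1309 neighbouring pairs of sites. Of these, 414 had this order, 272 had the opposite order and 623 were on the same strand. Of the 414, 201 pairs overlapped and 213 did not. The pairs at Smo, Boc and Evc2 do not overlap. The other orders were not split by overlap, so the share of this order among pairs that do not overlap is unknown. Whether the arrangement is unusual was not tested. The sites of the Smo and Boc pairs are not copies of each other. The plus-strand sites are cgaGGGGccc at Smo and ctaGGGGccc at Boc, and the minus-strand sites are tctGGGGcca and cctGGGGctc.

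In sequence the sites had a common core. All 8 had G at positions 4 to 7, a run found in 54.7% of all 5753 sites. At position 5 the motif takes either G or A, with A in 44.8% of all sites and in 0 of these 8. The stretch GGGGCC at positions 4 to 9 was in 6 of the 8, the exceptions being the Ptch1 site and the minus-strand site of Boc, and in 31.5% of all sites. Each site sequence also occurred elsewhere in the list, between 6 times for tctGGGGcca of Smo and 48 times for cctGGGGctc of Boc. Against the highest-scoring site of all windows, tatGAGGccc with a score of 7.74 at chr11:48834453-48834462 on the minus strand, these sites matched at 5 to 7 of 10 bases.

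**Figure D4:**
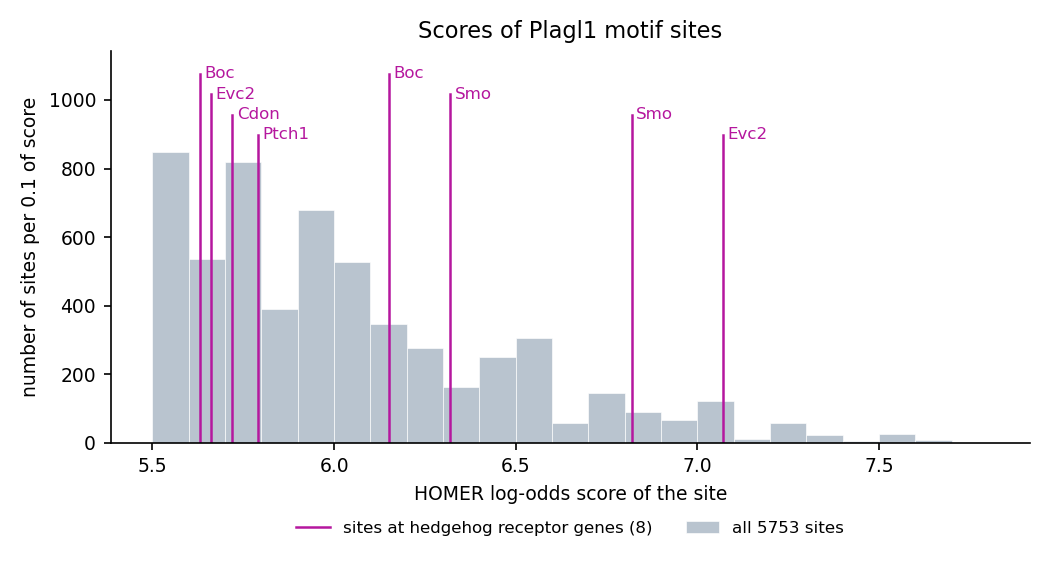
Scores of the 8 sites at receptor genes, as labelled vertical lines, over the number of all 5753 sites per 0.1 of score, as bars. Of the 8 sites, 4 lie between 5.63 and 5.79, in the low and crowded part of the scale, and 1 site each of Smo and Evc2 lies above 6.5.

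The scores themselves were spread over most of the scale. They ran from 5.63 to 7.07 with a median of 5.97, against 5.51 to 7.74 and a median of 5.94 for all sites. Smo and Evc2 had the sites above 6.5, 2 of the 8, where 15.9% of all sites scored 6.5 or more. Counted by gene, 3 of the 8 genes had such a site, since Evc counts that of Evc2, against 5.41% of all protein-coding genes. The sites of Boc, Cdon and Ptch1 scored 6.15 or less.

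Other genes of the hedgehog pathway were counted by the same rule. Of 32 genes, among them ligands, release factors, Gli factors and their regulators, 28 had a window and 13 had a site in it. Over all protein-coding genes these shares were 59.5% and 25.1%. Of the 8 receptor genes, 7 had a window and 6 a site, so a window was common in both lists. None of the 32 had a site of 6.5 or more, where the share over all protein-coding genes was 5.41%, or few genes in 32. The highest were Iqce, a partner of the Evc complex at the cilium base, with 6.45, Mgrn1, a ubiquitin ligase that acts on Smo, with 6.40, and Scube2, which aids ligand release, with 6.37, all chosen for their scores. Efcab7, which anchors the Evc complex together with Iqce, had no window.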

How the data were processed

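ATAC-seq reads of the 3 libraries were handled on mm10 with tools that include Bowtie2 2.3.5, MACS2 2.1.1 and edgeR, per the submitters' processing notes; libraries were made from 5000 cells, per the labels' protocols. Per the file headers, HOMER's annotatePeaks searched 1 motif around the centre of every region of a union peak list, so libraries are pooled. The deposited GC% was read from its values as a fraction of the bases, and CpG% as a ratio of CpG dinucleotides to steps. Both were turned into percent. The deposited score of a site is HOMER's log-odds score, whose log base is not stated.

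All 5753 sites were matched between both deposited tables. Windows were assigned to genes of RefSeq GRCm38.p6 when the midpoint lay inside or within 10 kb. Strands and promoter sequences came from RefSeq. Of window copies wholly inside a promoter sequence, 1670 of 1670 had the deposited GC content and the same sites when searched with the motif matrix recovered from sites and scores (largest error 6.1e-07). Counts were whole within 0.01 for GC in 13498 windows and for CpG in 13499. Recovery of the motif matrix was tested on simulated sites, and the 10 kb assignment on windows placed at known distances from genes. The other steps were not tested in this way. Mitochondrial genes were left out.

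The genes, lists and rules were chosen with earlier results of these data known. All 8 genes are named, with pathway genes with a site of 6.5 or more, and genes that share a window. Iqce, Mgrn1, Scube2 and Efcab7 were chosen after their values were seen, and 1 gene of the list is not reported here. No test was run, since no value belongs to a library. The analysis used Python 3.11.15, numpy 2.4.6, pandas 2.3.3, scipy 1.17.1 and matplotlib 3.10.9.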

Additional observations from a re-analysis of the deposited data

How the results depend on the processing

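Of 42 values under other distance rules, site rules and averages, 40 kept to within 1.5 times the reported count or within the 95% binomial interval of the reported GC or CpG content. That interval served only as a tolerance and does not measure the spread between windows or genes. With windows counted only within 1 kb of a gene end, the 8 genes had 6 windows in place of 10, since those of Ptch1, the inner window of Smo and the window in Ahcyl2 drop out by that rule. With sites of a score of 6 or more alone, 4 sites remained of 8. The number of genes with a site, reported as 6, also depended on the rule. It was 5 with windows inside the gene only or given to the nearest gene alone. It was 4 under the rule of 1 kb and with sites of 6 or more, and 4 was still counted as within 1.5 times. The number of genes with a window was 6 under the rule of 1 kb and 7 under each of the others, up to 50 kb, while the share of all protein-coding genes with a window moved between 41.5% and 71.9%. No paired analysis was possible because no value belongs to a library. Leaving out a library could not be done for the same reason, and depth per window is unknown.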

Other observations

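The spacing of 36 bp between a plus-strand and a following minus-strand site, found at both Smo and Boc, occurred in 5 windows of the whole list. The other 3 had Baalc, Ahctf1 and Cd34 as their nearest protein-coding genes, inside the gene for Baalc and at 44077 and 15295 bp from Ahctf1 and Cd34. Among pairs of this order that do not overlap, 213 in all, no spacing had more than 5 pairs, and 5 spacings had that many. This pattern was noticed after the sites were seen and was not tested.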
